A study of Rattus norvegicus with 47 samples.

Results

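The oxytocin and vasopressin system was followed here through 4 genes in the prefrontal cortex of newborn rats: Oxt (ENSRNOG00000021225) and Avp (ENSRNOG00000021229), which encode the peptides, and Oxtr (ENSRNOG00000005806) and Avpr1a (ENSRNOG00000004400), which encode a receptor for each. The genes were chosen by Ensembl ID, without use of their values. All 4 were among the 32883 gene IDs of the count table, and 3 of the 4 (Avp, Oxtr and Avpr1a) passed the filter on low counts that left 17135 genes for testing. Mothers had been exposed once daily during gestation, and the cortex was taken on postnatal day 1. BFR was 1000 µg of the brominated compounds EH-TBB and BEH-TEBP, OPFR was 1000 µg of triphenyl phosphate with its isopropylated form, and FM550 was 2000 µg of the commercial flame retardant mixture of that name, which contains both kinds of compound. Controls are labelled only as Control, and no label gives the strain, the vehicle or the litters. Each treatment had 6 female and 6 male libraries, except OPFR with 5 females and 6 males, 47 in all. The title of the study asks whether effects of the mixture are specific to 1 sex and come mostly from the organophosphate esters.

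Oxytocin and vasopressin are short, closely related peptides that are cut from larger precursors. Their best known source is the large neurons of the paraventricular and supraoptic nuclei of the hypothalamus, which release them from the posterior pituitary into the blood and from their branches into the brain. Cortical cells are known mainly as receivers of these peptides. The receptors encoded by Oxtr and Avpr1a couple to Gq proteins and phospholipase C, and each can bind both peptides to some degree. In rodents both receptors are studied for their parts in social recognition, bonding and parental behaviour.

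Libraries held between 41.1 and 73.4 M counted reads, with a median of 57.4 M. The titles number the libraries from 1 to 47, and earlier work on all genes of this table found that 1 run of numbers, controls 1 to 7, stands apart. Controls 1 to 7 comprise Control males 1 to 5 as well as Control females 1 and 2, and 15.2% of all genes tested differed between them and controls 8 to 12 (edgeR quasi-likelihood, sex in the model). Within OPFR, 12.6% of genes differed between numbers 25 to 30 and numbers 31 to 35, the latter being OPFR males 4 to 6 with OPFR females 4 and 5. This split of OPFR into runs was made after the data were seen. The split of the controls also comes from these data, so its share of genes and its p-values describe it and do not test it. OPFR females 4 and 5 also stand apart by themselves. The labels name no batch or date. With 5 of 6 control males in the first run, treatment and run can be told apart in males only through Control male 6. Comparisons with controls that these runs moved most are also given with the runs modelled or left out. The tissue label could not be checked against marker genes, because the table does not pair its IDs with names.

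Oxt and Avp lie next to each other on 1 chromosome, with 0 genes between them and in opposite orientation in the RefSeq annotation, yet they gave very different numbers of reads in this tissue. Their promoters are shown for that reason, as the 250 bases before each start in RefSeq (build GRCr8), found by symbol as those of all 4 genes were. The build behind the counts is itself not given in the sources used. The Oxt stretch is chr3:138235504-138235753 on the plus strand, and the Avp stretch is chr3:138248523-138248772 on the minus strand. Capitals mark matches on either strand to 3 motifs. The letters TGACC form the half-site of nuclear hormone receptors. An E-box was searched as CACGTG. The TATA box was searched as TATAAA.
Oxt: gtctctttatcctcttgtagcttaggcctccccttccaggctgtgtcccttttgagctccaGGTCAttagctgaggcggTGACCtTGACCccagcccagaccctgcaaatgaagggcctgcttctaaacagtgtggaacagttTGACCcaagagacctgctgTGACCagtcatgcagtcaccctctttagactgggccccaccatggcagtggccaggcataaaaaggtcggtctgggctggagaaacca
Avp: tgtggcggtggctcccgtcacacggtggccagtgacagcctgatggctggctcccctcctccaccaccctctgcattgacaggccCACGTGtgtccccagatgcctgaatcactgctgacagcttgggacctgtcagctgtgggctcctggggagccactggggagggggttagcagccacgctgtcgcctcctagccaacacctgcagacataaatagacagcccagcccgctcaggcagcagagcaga
The Oxt promoter held 5 matches to TGACC, 4 on its own strand and 1 on the other. Counted back from the start, those on its own strand lie at bases 171 to 167, 165 to 161, 107 to 103 and 88 to 84, and the other lies at 189 to 185. The Avp promoter held 0 matches to TGACC and 1 to CACGTG, at bases 165 to 160. The Oxtr promoter held 2 matches to TGACC and the Avpr1a promoter 1 to TATAAA. Matches did not overlap each other. Among 33469 RefSeq promoter stretches of the same length, 35.4% held TGACC, 5.59% CACGTG and 12.9% TATAAA. A match describes the letters only.

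Oxt, the oxytocin precursor gene, was close to the limit of counting. All 47 libraries together held 114 Oxt reads. There were 8 libraries with 0 reads, 8 with 1, 17 with 2 and 11 with 3 to 5. Control male 2 had 7 reads, FM550 male 2 had 13 and BFR male 6 had 14. For BFR male 6 this was 0.197 CPM (read counts per M counted reads, scaled by TMM), with an exact 95% Poisson interval of 7.65 to 23.5 reads. FM550 male 2 stood at 0.177 CPM, with an interval of 6.92 to 22.2 reads. All intervals and limits cover counting error only. Both high libraries are male, and they come from different exposures. They were also deep, with 73.4 M counted reads in FM550 male 2, the most of any library, and 70.9 M in BFR male 6. Scaled to depth as CPM, they still ranked highest.

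Part of the Oxt reads lay in these libraries and the rest were thinly spread. The 2 highest libraries held 23.7% of all Oxt reads and 19.9% of the summed CPM. The 5 highest held 35.1% of the summed CPM. With a median of 2 reads per library, counting error alone raises such a share, and how much of it this accounts for was not tested. The remaining 87 reads were spread over 37 libraries, none above 7 reads. Libraries with 0 reads were 2 of 12 controls, 4 of 12 BFR, 2 of 11 OPFR and 0 of 12 FM550. In those 8 libraries a count of 0 allows a level of up to 0.0458 to 0.0734 CPM (3 reads), which is above the mean of 0.040 ± 0.040 CPM over all libraries (SD, n = 47).

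In both libraries with the most Oxt reads, Avp was not at its highest. FM550 male 2 ranked 25th of 47 in Avp at 1.44 CPM, and BFR male 6 ranked 12th at 1.65 CPM. FM550 male 2 did have the highest Avpr1a level of any library, 4.15 CPM from 305 reads, and BFR male 6 ranked 8th at 3.59 CPM. Oxtr was low in both, at 1.32 CPM (42nd) in FM550 male 2 and 1.52 CPM (39th) in BFR male 6. These ranks are those of 2 libraries and were not tested.

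**Figure D1:**
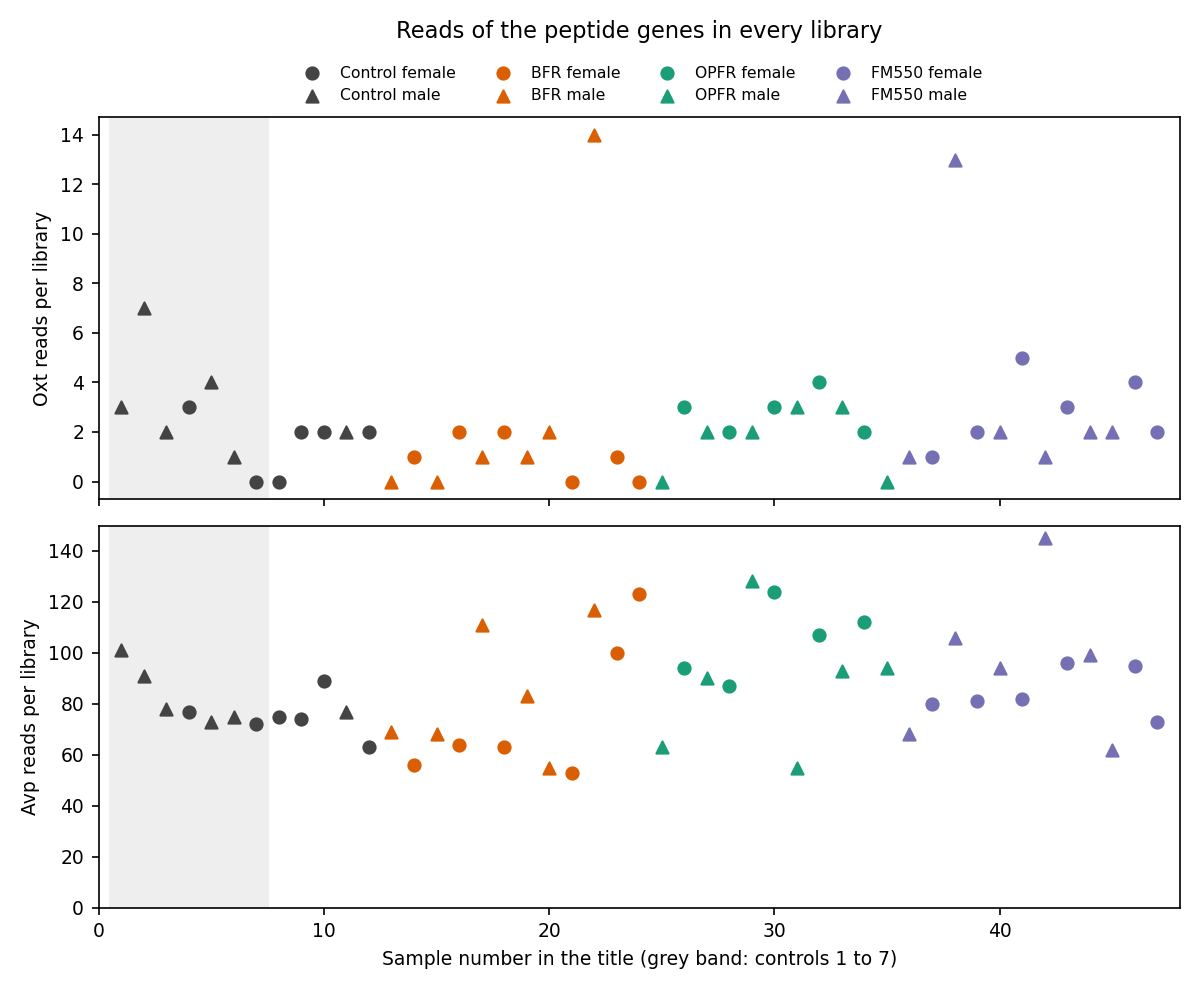
Reads of Oxt (top) and Avp (bottom) in each library, ordered by the sample number in the title; circles are females, triangles are males, colours are treatments and the grey band holds controls 1 to 7. BFR male 6 (14 reads) and FM550 male 2 (13 reads) stand above the other libraries in Oxt, while every library has 53 to 145 Avp reads.

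No difference in Oxt between exposed and control libraries was detectable at this depth. Control females ran from 0 to 0.0572 CPM with a median of 0.0362, and control males from 0.0167 to 0.109 with a median of 0.0478. BFR females ran from 0 to 0.0350 CPM (median 0.0157), and BFR males from 0 to 0.197 (median 0.0146). OPFR females 1 to 5 measured 0.0524, 0.0380, 0.0428, 0.0608 and 0.0286 CPM. Those 5 libraries held 2 to 4 Oxt reads each. OPFR males held 0 to 3 reads and ran from 0 to 0.0507 CPM (median 0.0335). Counts this small cannot tell the sexes apart. FM550 females ran from 0.0178 to 0.101 CPM (median 0.0454), and FM550 males from 0.0164 to 0.177 (median 0.0305). The ranges overlapped in each comparison with controls of the same sex. Over the 6 comparisons within a sex, exact two-sided permutation tests of the mean CPM gave adjusted p-values from 0.429 to 0.907. The lowest unadjusted value was 0.117, for OPFR males at 0.028 ± 0.023 CPM (SD, n = 6) against control males at 0.055 ± 0.033 (SD, n = 6; exact permutation test). Controls 1 to 7 averaged 0.051 ± 0.036 CPM (SD, n = 7) and controls 8 to 12 averaged 0.030 ± 0.017 (SD, n = 5). In males, the mean differed from controls by -0.028 CPM for OPFR, -0.011 for BFR and -0.0037 for FM550. Without controls 1 to 7 these male differences were -0.0066, 0.0098 and 0.017 CPM, against the single control male left at 0.0342 CPM. Without the filter on low counts, edgeR gave log2 fold changes over both sexes of -0.50 ± 0.55 for BFR, -0.15 ± 0.55 for OPFR and 0.38 ± 0.50 for FM550 (SE). Each of these is smaller than its standard error.

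Avp, the vasopressin precursor gene, was read in every library. Its reads ran from 53 in BFR female 4 to 145 in FM550 male 4, and its level from 0.929 to 2.38 CPM. The mean was 1.46 ± 0.28 CPM (SD, n = 47), a coefficient of variation of 19.4%. The 5 highest libraries held 14.2% of the summed CPM, beside 15.7% for Oxtr and 14.6% for Avpr1a, so Avp reads were not confined to a few libraries. The share for Oxt is not set beside these, since it rests on 114 reads in all against 4035 for Avp, 5354 for Oxtr and 7909 for Avpr1a. FM550 male 4 was highest at 2.38 CPM, with OPFR male 3 next at 1.94. Neither stood out in Oxt, with 1 and 2 reads.

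Mean Avp was lowest in BFR and highest in OPFR, with overlap between all treatments. Controls ran from 1.252 to 1.82 CPM with a median of 1.43, and BFR from 0.934 to 1.88 with a median of 1.19. The corresponding range was 0.929 to 1.94 CPM in OPFR (median 1.64) and 1.10 to 2.38 in FM550 (median 1.48). Of the 6 BFR females, 4 lay below every control, between 0.934 and 1.10 CPM, while BFR female 6 was at 1.88. OPFR females 1 to 5 measured 1.64, 1.65, 1.77, 1.63 and 1.60 CPM, each above the highest control female at 1.56. Those OPFR females averaged 1.66 ± 0.07 CPM (SD, n = 5) and the control females 1.45 ± 0.10 (SD, n = 6). The log2 fold change between them was 0.19 ± 0.17 (SE), with an edgeR adjusted p of 0.553, and 3.1% of all genes were called in that comparison. The share of all genes whose OPFR and control females did not overlap was not counted, so the lack of overlap is no result about Avp.

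Averaged over the sexes, Avp was not called against controls for any exposure. The log2 fold changes were -0.19 ± 0.12 for BFR (edgeR adjusted p = 0.299), 0.13 ± 0.12 for OPFR (0.456) and 0.08 ± 0.12 for FM550 (0.762). The 95% intervals ran from -0.42 to 0.05, from -0.11 to 0.37 and from -0.16 to 0.31. In the same comparisons 12.4%, 19.3% and 8.13% of all genes tested were called. Without controls 1 to 7 the Avp values were -0.10 ± 0.19, 0.21 ± 0.19 and 0.15 ± 0.19, and without OPFR libraries 31 to 35 the OPFR value was 0.21 ± 0.13, none of them called. The exposures share the control libraries. Controls 1 to 7 averaged 1.48 ± 0.18 CPM (SD, n = 7) and controls 8 to 12 1.42 ± 0.13 (SD, n = 5), a log2 difference of 0.08 ± 0.16 (edgeR adjusted p = 0.804), which is smaller than the spread between libraries.

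Between exposures, Avp differed most for OPFR against BFR. BFR averaged 1.28 ± 0.31 CPM (SD, n = 12) and OPFR 1.59 ± 0.25 (SD, n = 11). The log2 fold change was 0.32 ± 0.12, with an unadjusted p of 0.00973 and an edgeR adjusted p of 0.102, in a comparison where 4.75% of all genes were called. It passed the threshold without BFR female 6 (edgeR adjusted p = 0.0209) or without OPFR male 4 (edgeR adjusted p = 0.0458), the highest BFR and the lowest OPFR library. Over the 23 fits that left out 1 library it ran from 0.28 to 0.40, with edgeR adjusted p-values from 0.0209 to 0.181. Without OPFR libraries 31 to 35 it was 0.40 ± 0.13 (edgeR adjusted p = 0.137). FM550 exceeded BFR by 0.26 ± 0.12, with an edgeR adjusted p of 0.437 and 0.204% of genes called. FM550 and OPFR differed by -0.06 ± 0.12 (edgeR adjusted p = 0.829), where 0.00584% of genes were called. The FM550 dose was 2000 µg and each other dose 1000 µg. FM550 thus differs from BFR and from OPFR in both total dose and composition, which cannot be told apart here. OPFR and BFR differ in composition at the same total dose.

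Oxtr, the oxytocin receptor gene, was the 1 member called against controls, for OPFR over both sexes. Controls ran from 1.63 to 3.00 CPM with a median of 2.41, and OPFR from 0.676 to 2.26 with a median of 1.87, so the groups overlapped. The mean was 2.31 ± 0.50 CPM in controls (SD, n = 12) and 1.59 ± 0.55 in OPFR (SD, n = 11). Oxtr was lower in OPFR by a log2 fold change of -0.53 ± 0.17 (SE; 95% interval -0.88 to -0.19), with an edgeR adjusted p of 0.0233. In that comparison 19.3% of all genes were called, so 1 call among 3 members tested is not a result about the system. Less Oxtr RNA in a tissue piece can come from fewer cells that carry it or from less RNA per cell, and bulk samples cannot tell these apart.

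The Oxtr difference moved with both runs of libraries. Controls 1 to 7 ran from 2.08 to 3.00 CPM and averaged 2.61 ± 0.33 (SD, n = 7). Controls 8 to 12 measured 1.65, 1.87, 1.63, 1.73 and 2.56 CPM and averaged 1.89 ± 0.39 (SD, n = 5). Of those 5 controls, 4 lay below every one of the first 7. The log2 difference was 0.50 ± 0.17 (edgeR adjusted p = 0.0697, 15.2% of genes called). Over the 12 fits that left out 1 library it stayed between 0.43 and 0.60, with edgeR adjusted p-values from 0.0250 to 0.291. The lowest of these came without Control female 6, the highest of controls 8 to 12, where the difference was 0.60 ± 0.15.

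Within OPFR the break was wider. OPFR libraries 25 to 30 ran from 1.87 to 2.26 CPM with a mean of 2.03 ± 0.13 (SD, n = 6), close together and within the range of the controls. OPFR libraries 31 to 35 measured 0.676, 1.00, 1.30, 0.887 and 1.43 CPM, a mean of 1.06 ± 0.31 (SD, n = 5). The runs did not overlap, and the share of all genes that did the same was not counted. By edgeR, 12.6% of all genes were called between the runs. Their log2 difference was -0.92 ± 0.20, with an edgeR adjusted p of 0.0287. The split was chosen after the data were seen, so the lack of overlap, the share of genes and the p-value describe it and do not test it. Over the 11 fits that left out 1 library the difference stayed between -1.04 and -0.81. In 6 of them (without OPFR female 1, 2, 3, 4 or 5, or OPFR male 3) the edgeR adjusted p was above the threshold, from 0.0681 to 0.0859, with differences of -0.92 to -0.86. Of the other 42 libraries, 3 lay within the range of the last run, namely FM550 male 4 at 1.15 CPM, FM550 male 2 at 1.32 and BFR male 3 at 1.40.

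**Figure D2:**
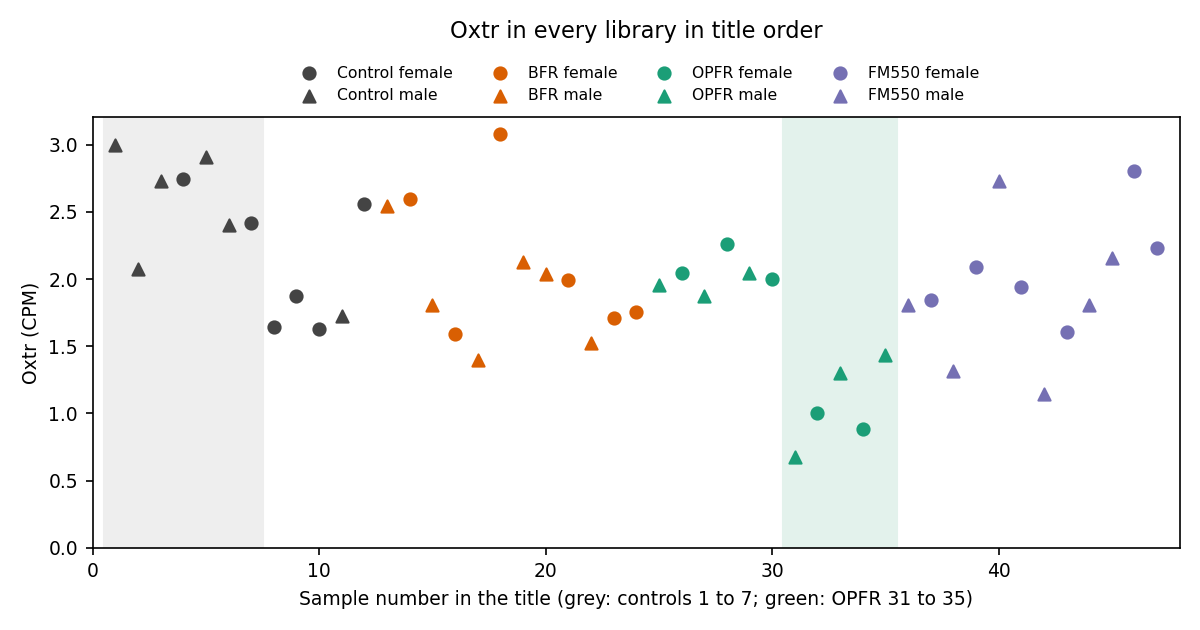
Oxtr in CPM in each library, ordered by the sample number in the title; circles are females, triangles are males, colours are treatments, the grey band holds controls 1 to 7 and the green band OPFR 31 to 35. Controls 1 to 7 lie between 2.08 and 3.00 CPM and OPFR 31 to 35 between 0.676 and 1.43.

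The OPFR call on Oxtr was not kept when either run was set aside. With a term for controls 1 to 7, the log2 fold change was -0.23 ± 0.23 (edgeR adjusted p = 0.698), and 0.525% of all genes were called. Without those 7 libraries it was -0.20 ± 0.26 (edgeR adjusted p = 0.753), with 0.0233% of genes called. Without OPFR libraries 31 to 35 it was -0.19 ± 0.16 (edgeR adjusted p = 0.536), and without OPFR females 4 and 5 alone it was -0.36 ± 0.17 (edgeR adjusted p = 0.2004). Without both runs the direction turned, to 0.15 ± 0.23 (edgeR adjusted p = 0.989). Single libraries also decided the call, since it was lost without Control female 1 (edgeR adjusted p = 0.0523), OPFR female 4 (0.0587) or OPFR female 5 (0.0646). OPFR libraries 31 to 35 are the lowest of OPFR in Oxtr and were split off after the data were seen. Leaving them out was therefore bound to raise the OPFR mean, and fits without them do not test the run. Leaving out controls 1 to 7 also raised the standard error, from 0.17 to 0.26. What sets the runs apart was not tested.

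By sex, Oxtr in OPFR males ran from 0.676 to 2.05 CPM (median 1.65) and in control males from 1.73 to 3.00 (median 2.57). The log2 fold change in males was -0.68 ± 0.24, with an edgeR adjusted p of 0.0504 beside 12.5% of genes called. It was -0.25 ± 0.32 with a term for controls 1 to 7 (edgeR adjusted p = 0.999), -0.16 ± 0.45 without them (0.960), -0.34 ± 0.23 without OPFR libraries 31 to 35 (0.435) and 0.17 ± 0.38 without both runs. Leaving out 1 library gave edgeR adjusted p-values from 0.0245 (without Control male 6) to 0.136 (without OPFR male 4), and the call was also made without Control male 2, OPFR male 1 or OPFR male 3. Of the 6 control males, 5 belong to numbers 1 to 7, and the remaining one measured 1.73 CPM. OPFR females 1 to 5 measured 2.04, 2.26, 2.00, 1.00 and 0.887 CPM, split between 3 values inside and 2 values below the range of control females, 1.63 to 2.75 (median 2.15). The female log2 fold change was -0.39 ± 0.25 (edgeR adjusted p = 0.384), and it was -0.21 ± 0.26 with the term, -0.24 ± 0.28 without controls 1 to 7 and -0.04 ± 0.23 without OPFR libraries 31 to 35. The difference between the female and male effects was 0.28 ± 0.34 (edgeR adjusted p = 0.865), with 0% of genes called for that difference. With the term it was 0.04 ± 0.36, and without controls 1 to 7 it was -0.08 ± 0.53.

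With the other exposures Oxtr was not called against controls. BFR ran from 1.40 to 3.08 CPM (median 1.90) and FM550 from 1.15 to 2.80 (median 1.90), both overlapping the controls. Over both sexes the log2 fold changes were -0.20 ± 0.17 for BFR (edgeR adjusted p = 0.467) and -0.24 ± 0.17 for FM550 (edgeR adjusted p = 0.428). With a term for controls 1 to 7 they were 0.10 ± 0.23 and 0.06 ± 0.23, on the other side of 0. In males alone they were -0.38 ± 0.23 for BFR (edgeR adjusted p = 0.330, 9.95% of genes called) and -0.44 ± 0.23 for FM550 (edgeR adjusted p = 0.236, 11.8% of genes called). With the term these male values were 0.05 ± 0.32 and -0.01 ± 0.32, and without controls 1 to 7 they were 0.14 ± 0.45 and 0.07 ± 0.45. OPFR was below BFR by -0.34 ± 0.17 (edgeR adjusted p = 0.237), a difference of 0.0011 ± 0.16 without OPFR libraries 31 to 35. FM550 minus OPFR was 0.30 ± 0.17 (edgeR adjusted p = 0.347), and -0.05 ± 0.16 without that run.

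**Figure D3:**
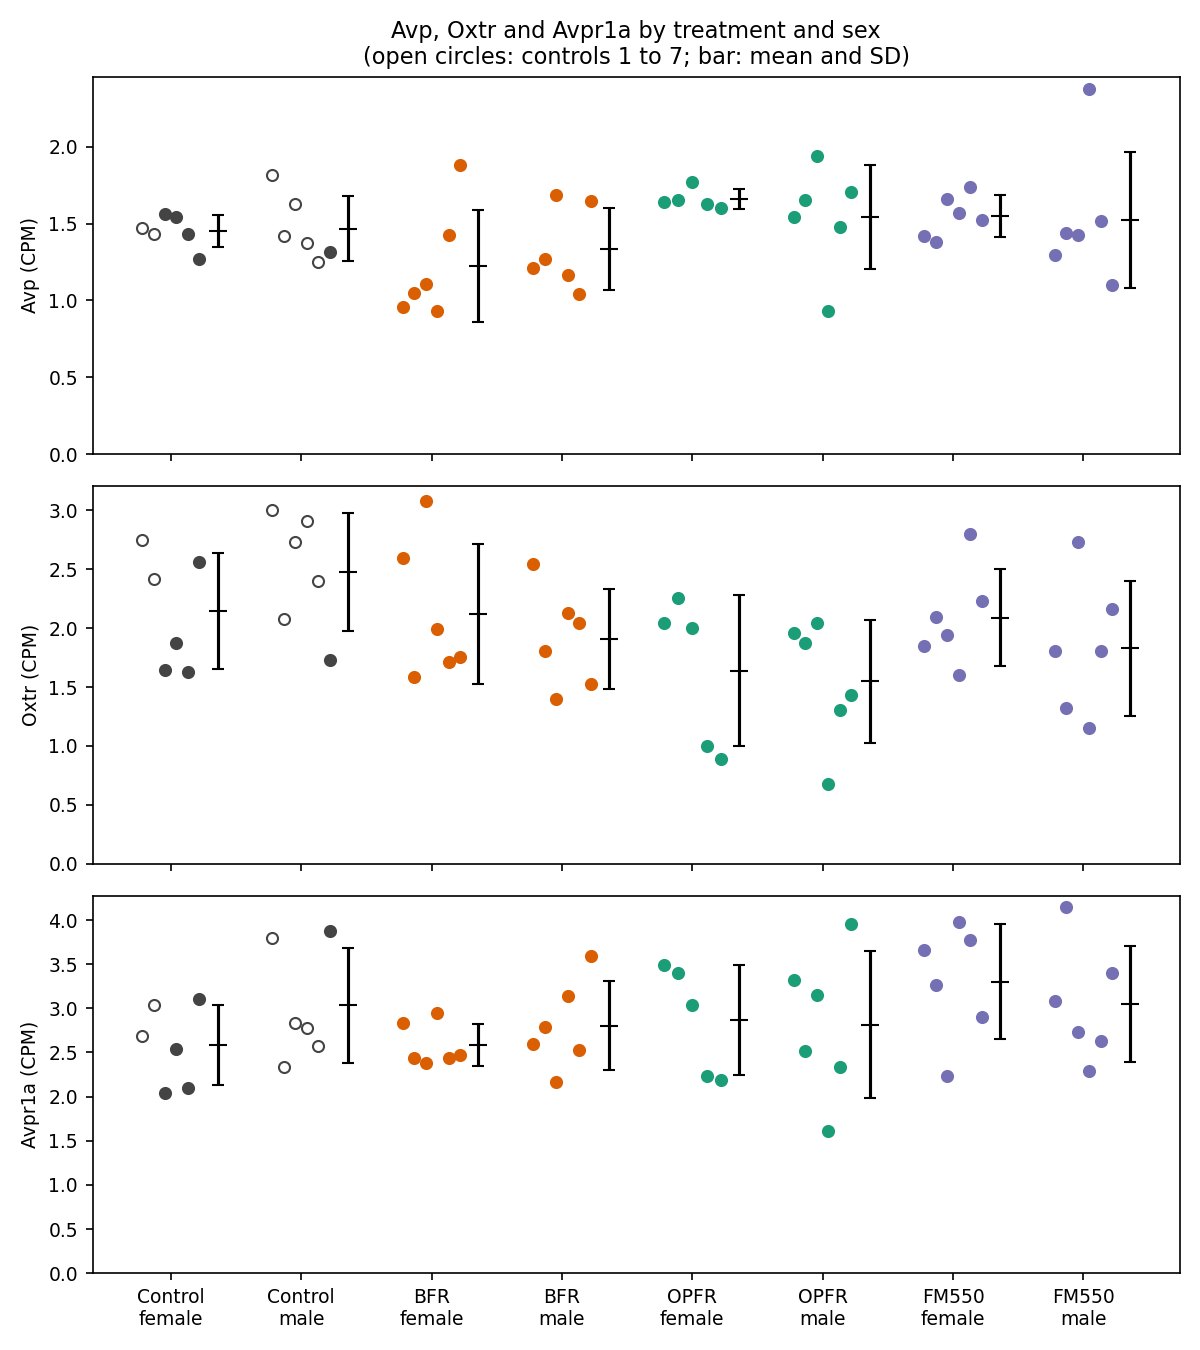
CPM of Avp, Oxtr and Avpr1a in each library by treatment and sex; open circles are controls 1 to 7, and the bar beside each group is its mean with the SD. Avp in FM550 male 4 (2.38 CPM) lies above the rest, and Oxtr in OPFR splits into values near 2 CPM and values between 0.676 and 1.43 CPM.

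Avpr1a, the gene for the vasopressin receptor V1a, was read in every library, with 95 reads in OPFR male 4 and 305 in FM550 male 2 at the ends. Its mean was 2.88 ± 0.60 CPM (SD, n = 47). Controls ran from 2.04 to 3.88 CPM (median 2.73), BFR from 2.17 to 3.59 (median 2.57), OPFR from 1.61 to 3.96 (median 3.04) and FM550 from 2.23 to 4.15 (median 3.17). All ranges overlapped. Over both sexes the log2 fold changes were -0.06 ± 0.12 for BFR (edgeR adjusted p = 0.811), 0.02 ± 0.13 for OPFR (0.927) and 0.18 ± 0.12 for FM550 (0.408). The 95% intervals ran from -0.30 to 0.19, from -0.23 to 0.27 and from -0.07 to 0.43. Without controls 1 to 7 the values were -0.19 ± 0.19, -0.12 ± 0.19 and 0.04 ± 0.19, and without OPFR libraries 31 to 35 the OPFR value was 0.16 ± 0.13. None of these values over both sexes was called. Without controls 1 to 7 the male side rests on Control male 6 alone, the highest control at 3.88 CPM. The sexes then had opposite signs for BFR, OPFR and FM550, at -0.46, -0.46 and -0.35 in males and 0.09, 0.23 and 0.43 in females.

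With all libraries, the largest Avpr1a difference from controls was in FM550 females. They ran from 2.23 to 3.97 CPM with a median of 3.46, and control females from 2.04 to 3.10 with a median of 2.61. Of the 6 FM550 females, 4 lay above every control female. The means were 3.30 ± 0.65 CPM and 2.58 ± 0.45 (SD, n = 6 each). Their log2 fold change was 0.35 ± 0.17, with an unadjusted p of 0.0471. The edgeR adjusted p was 0.919, and 0% of all genes were called in FM550 females, with 927 genes at an unadjusted p under 0.05 in edgeR and 34 called by DESeq2. In FM550 males the log2 fold change was 0.01 ± 0.17 (edgeR adjusted p = 0.988), and the difference between the sexes was 0.35 ± 0.24 (edgeR adjusted p = 0.670, 0% of genes called). Without controls 1 to 7 the male value was -0.35 ± 0.31, against the single control male left at 3.88 CPM, the female value was 0.43 ± 0.20 (edgeR adjusted p = 0.772), and the difference between the sexes was 0.79 ± 0.37, with an unadjusted p of 0.0384 and an edgeR adjusted p of 1.00.

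Neither run comparison was called for Avpr1a with all libraries. Controls 1 to 7 averaged 2.86 ± 0.46 CPM (SD, n = 7) and controls 8 to 12 averaged 2.73 ± 0.77 (SD, n = 5), a log2 difference of -0.03 ± 0.18 with sex in the model (edgeR adjusted p = 0.938). OPFR libraries 25 to 30 ran from 2.52 to 3.49 CPM with a mean of 3.15 ± 0.35 (SD, n = 6). OPFR libraries 31 to 35 measured 1.61, 2.23, 2.34, 2.19 and 3.96 CPM, so 4 of the 5 lay below all of 25 to 30 and OPFR male 6 lay above them. The log2 difference was -0.34 ± 0.21 (edgeR adjusted p = 0.261). Without OPFR male 6 it was -0.56 ± 0.15 and passed the threshold (edgeR adjusted p = 0.0194). Over the 11 fits that left out 1 library it ran from -0.56 to -0.23, with edgeR adjusted p-values from 0.0194 to 0.439. For Avp the same difference was -0.18 ± 0.17 (edgeR adjusted p = 0.475).

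**Figure D4:**
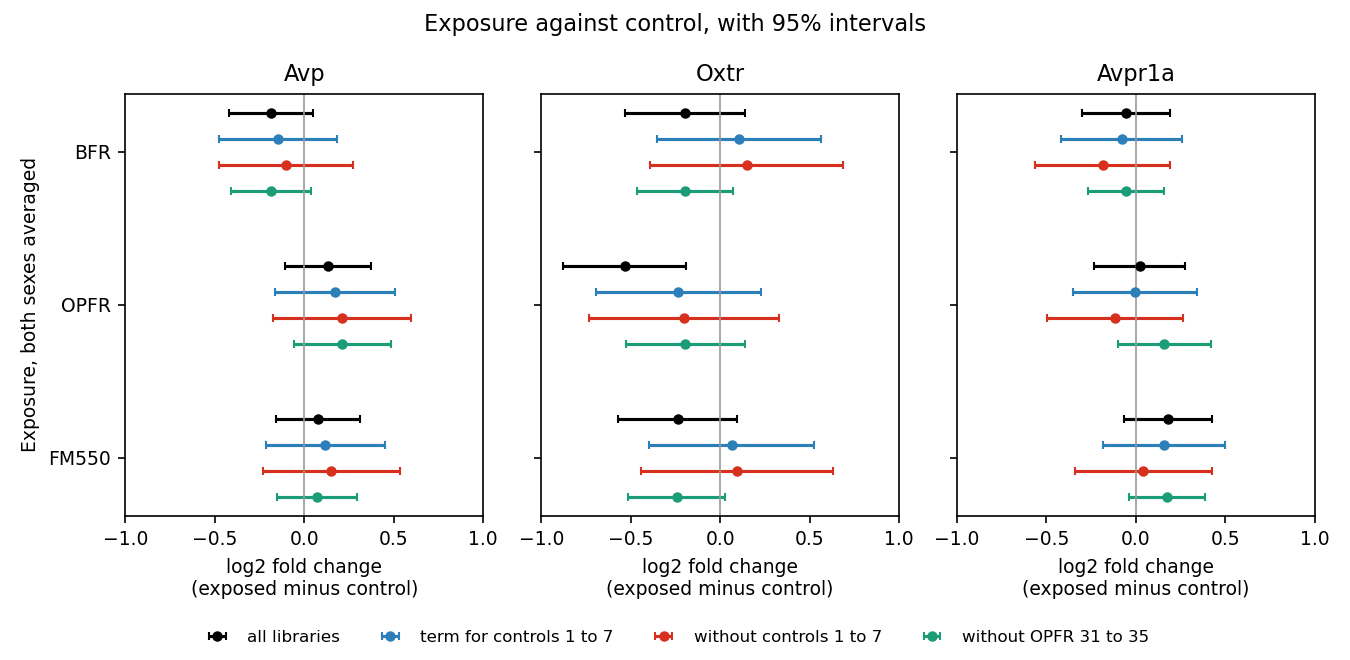
Log2 fold change (exposed minus control, both sexes averaged, x axis) with 95% intervals for Avp, Oxtr and Avpr1a, from all libraries, with a term for controls 1 to 7, without them, and without OPFR 31 to 35. The interval of Oxtr in OPFR lies below 0 with all libraries (-0.88 to -0.19), and each of the other intervals drawn includes 0.

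The sexes did not differ detectably in any of the 3 members tested. Averaged over the treatments, females minus males gave log2 differences of -0.0035 ± 0.08 for Avp, 0.05 ± 0.12 for Oxtr and -0.05 ± 0.09 for Avpr1a (edgeR adjusted p = 0.999 for each), and 0.128% of all genes were called. The 95% interval for Avp, -0.17 to 0.16, limits a sex difference to that size in these libraries. Mean Avp was 1.46 ± 0.25 CPM in females (SD, n = 23) and 1.47 ± 0.32 in males (SD, n = 24). No interaction of sex with exposure was called for a member, and 0% of genes were called in each of the 3 interactions. For BFR, OPFR and FM550, 646, 1426 and 1560 genes had an unadjusted interaction p under 0.05 in edgeR, and DESeq2 called 3, 0 and 1. BFR females, where 0% of genes were also called (1345 at an unadjusted p under 0.05 in edgeR, 2 called by DESeq2), gave log2 fold changes of -0.24 ± 0.16 for Avp, -0.02 ± 0.23 for Oxtr and 0.0010 ± 0.17 for Avpr1a. Without controls 1 to 7 they were -0.23 ± 0.19, 0.15 ± 0.27 and 0.09 ± 0.20.

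Oxt and Avp reads did not follow each other across libraries. Pearson's r of their log2 CPM was 0.135 (n = 47, permutation p = 0.362, adjusted over 6 pairs of members 0.542), and Spearman's rho was 0.172 (permutation p = 0.244, adjusted 0.487). Within controls 1 to 7 r was 0.202 (n = 7, exact permutation p = 0.673), and within the other 40 libraries it was 0.125 (permutation p = 0.446). Without BFR male 6 and FM550 male 2 it was 0.111 (permutation p = 0.466). With 0 to 14 Oxt reads per library, a weak relation could not have been seen.

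The receptors Oxtr and Avpr1a gave the highest r of the 6 pairs, 0.380 (n = 47, permutation p = 0.00813, adjusted 0.0488), with a rho of 0.292 (permutation p = 0.0477, adjusted 0.286). Within controls 1 to 7 r was 0.698 (n = 7, exact permutation p = 0.0772), and within the other 40 libraries it was 0.404 (permutation p = 0.00947). Without OPFR male 4 and OPFR female 5, the libraries farthest from the median of Oxtr, r was 0.166 (permutation p = 0.275). The relation over all libraries was thus not kept without them. They were picked as extremes of Oxtr, so the drop alone does not show what the relation rests on. OPFR male 4 was the lowest of all 47 libraries in Avp (0.929 CPM), Oxtr (0.676 CPM) and Avpr1a (1.61 CPM).

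For each member the genes most like it over the 47 libraries were found by Pearson's r of log2 CPM among all genes tested. These values describe the libraries, which share their depths and runs, and carry no test. Oxtr was most like ENSRNOG00000009265 (r = 0.842) and ENSRNOG00000007925 (r = 0.840). Avpr1a was most like ENSRNOG00000007581 (r = 0.869) and ENSRNOG00000062141 (r = 0.863). The likest genes to Avp reached lower values, 0.681 for ENSRNOG00000023403 and 0.676 for ENSRNOG00000020194. Oxt reached 0.646 with ENSRNOG00000006120 and 0.591 with ENSRNOG00000002607, which at these read numbers is no finding.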

How the data were processed

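The authors deposited 1 table of raw read counts per Ensembl gene ID for the 47 libraries, without normalization. RNA was purified with an RNeasy kit, selected for poly(A) and made into libraries with the NEBNext Ultra Directional kit, per the labels' protocols. FastQC, featureCounts and DESeq2 were used, per the submitters' processing notes, with no version given. The aligner, the build and the strand setting are not stated in the labels or file headers, and overlapping genes were taken as counted. The table also has 15 entries without a gene name, all empty. Columns were matched to samples by the number in the title.

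Counts were tested with edgeR 4.0.16 (quasi-likelihood F test, R 4.3.3) after filterByExpr (minimum count 10, minimum total 15), which kept 17135 of 27198 IDs with a read. TMM factors ran from 0.95 to 1.10, and CPM uses TMM-scaled totals. The model had a mean for each of the 8 groups of treatment by sex. Run comparisons were fitted within the controls or within OPFR, with sex as a covariate. Benjamini-Hochberg adjustment covered all genes tested, tests were two-sided and a gene was called below 0.05. Standard errors come from the F statistic. Oxt failed the filter and was tested by exact permutation of the mean CPM. Correlations used log2 CPM with a prior count of 2 and 100000 permutations, or all orders where n = 7. The edgeR fit was tested on simulated counts, for OPFR against controls over both sexes only. Those counts held no runs of libraries, so the simulation does not cover their effect. Libraries were checked for copies, and the closest pair differed by a chi-square of 8.45 per gene.

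Nothing in the labels ties libraries to litters or animals, and p-values therefore measure only the spread between these samples. The 4 members, the lists and the runs of libraries were chosen with earlier results of these data known. The genes named are the members, and for each member the 2 genes most like it. Lists of pathway and marker genes were set by symbol and could not be used, since the table holds IDs only and the reference gene table (GRCr8, 47357 genes) holds 0 Ensembl IDs. Alternatives were DESeq2 1.42.0, RLE size factors, no filter, only the groups compared, a term for libraries 1 to 7, leaving out those, OPFR females 4 and 5, or each library in turn, plain CPM and a prior count of 0.5. Those added after seeing the data were leaving out OPFR libraries 31 to 35, alone and with 1 to 7, the comparison within OPFR, and the correlations of pairs other than Oxt and Avp.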

Additional observations from a re-analysis of the deposited data

Results flagged for a closer look

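Among the members, 3 values lay far from the other libraries of their group by Dixon's test at the 95% level, out of 32 gene-by-group sets. With normally distributed values chance flags about 1 in 20. That rate does not hold for Oxt, at a median of 2 reads per library. Oxt in BFR male 6 was 0.197 CPM, with the next BFR male at 0.0378. Oxt in FM550 male 2 was 0.177 CPM, with the next FM550 male at 0.0354. Avp in FM550 male 4 was 2.38 CPM, with the next FM550 male at 1.52, and without that library the log2 fold change of Avp in FM550 males went from 0.06 to -0.11.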

How the results depend on the processing

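Of the alternatives other than leaving out 1 library, 404 of 435 log2 fold changes kept their direction or stayed within their standard error and kept their side of the threshold. Over both sexes, Oxtr against controls gave -0.23, 0.10 and 0.064 for OPFR, BFR and FM550 with a term for controls 1 to 7, -0.20, 0.15 and 0.10 (0.0951) without them, and 0.15, 0.14 and 0.10 (0.0968) without OPFR 31 to 35 as well. The OPFR value was -0.36 without OPFR females 4 and 5, -0.19 without OPFR 31 to 35 and -0.53 when only the compared groups were fitted (edgeR adjusted p = 0.0646). None of these OPFR values was called. Avpr1a in OPFR was -0.12 without controls 1 to 7, an average of 0.23 in females and -0.46 in males against Control male 6 alone. Leaving out each library in turn gave Oxtr in OPFR -0.61 to -0.46. DESeq2 (adjusted p = 0.0107) and RLE size factors (edgeR adjusted p = 0.0195) kept the OPFR call on Oxtr. In OPFR males, DESeq2 (adjusted p = 0.0290), RLE factors (0.0453, edgeR) and leaving out OPFR females 4 and 5 (0.0256, edgeR) brought Oxtr past the threshold. On raw reads the 5 highest Avp libraries held 15.8%. Without controls 1 to 7, 1 control male is left and is assumed to vary like the other groups. Depth limits Oxt most, at a median near 2 reads per library. No paired analysis was possible because the titles give each library its own number and replicates were numbered in record order. The causes of these changes were not tested.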
